A study of Mus musculus with 24 samples.

Results

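The genes described here were 40 mouse genes of the lysosome, chosen by gene symbol from a list of soluble hydrolases, proteins of the lysosomal membrane and Tfeb, a transcription factor of lysosomal genes. Of these, 38 were measured among the 18819 genes that the arrays named singly. Ctsb and Sgsh lay only on probe sets that name several genes and were not analysed here. The 38 comprised 7 cysteine cathepsins, 4 other proteases and amidases, 11 glycosidases, 4 sulfatases, 6 genes of lipid breakdown, 5 membrane proteins and sterol transporters, and Tfeb.

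Lysosomes are acidic organelles in which hydrolases break down proteins, glycans and lipids delivered by endocytosis, phagocytosis and autophagy. Most of the soluble enzymes reach the organelle through mannose phosphate receptors, while heavily glycosylated proteins such as LAMP1 and LAMP2 line its membrane. Inherited loss of several of these enzymes or proteins affects the heart muscle, as in Pompe disease (acid alpha-glucosidase, Gaa), Fabry disease (alpha-galactosidase A, Gla) and Danon disease (Lamp2).

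The study compared hearts of wild type (WT) mice with hearts of double knockout (KO) mice. Newborn (day 1 to 2 in the labels) and young (P30) hearts of each genotype were hybridised, with 6 arrays in each of the 4 groups and 24 in all. In KO mice one gene was deleted in the whole body, whereas the other, floxed, was deleted by Cre under the Nkx2.5 basal promoter and cardiac enhancer, so that cells in which this driver is silent, such as cardiac fibroblasts, kept it. By the methods, all mice had a C57BL/6J background and the RNA came from ventricles only. Whether the WT mice carried the floxed allele or Cre is not given in the sources used here. Values are log2 signals after robust multi-array averaging, in which 1 unit is a 2-fold difference, and a gene was called when its adjusted p in limma, taken over all genes tested, was under 0.05. In these tissue samples fewer cells of a type and less RNA per cell cannot be told apart.

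The median signal of an array lay between 4.24 and 4.5, and each array correlated with the rest of its group at a mean r between 0.986 and 0.996. The genotype labels were not checked by the deleted genes, which were not analysed here. On 191 genes outside the list that differed between genotypes in young hearts, the newborn arrays numbered 4 lay on the side of the other genotype. The array labelled newborn WT 4 had a mean difference from the newborn average, signed so that KO is positive, of 0.046, against -0.082 to 0.020 in the other WT arrays. The array labelled newborn KO 4 had -0.066, against 0.019 to 0.102 in the other KO arrays. Newborn WT 3, at 0.020, lay on the KO side as well, so the remaining newborn arrays were not cleanly split by genotype. In young hearts, WT 2 and KO 3 stood apart from their groups in fibroblast markers, with a mean log2 signal over 10 markers of 9.55 in WT 2 (8.02 to 8.96 in the other WT hearts) and 8.10 in KO 3 (9.08 to 9.84 in the other KO hearts). Young WT 2 was also high in adipocyte markers (8.20, against 3.50 to 3.81 in the other WT hearts), atrial markers (9.42, against 5.48 to 8.16) and smooth muscle markers (9.23, against 7.28 to 7.74). In young KO hearts the atrial mean ran from 6.15 to 10.23, a range that holds the value of young WT 2. Markers of working ventricular muscle were bright in all groups, with a group mean of 12.27 to 12.54 over 10 genes. The Y-linked transcripts were low in 1 newborn WT and 2 newborn KO hearts and in 3 young hearts of each genotype, whereas the methods give equal numbers of males and females in each group.

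Tfeb and its relatives bind the E-box CACGTG, which is the core of the longer palindrome TCACGTGA. The letters CACGTG, which read the same on both strands, were found in the promoter windows (250 bases before to 50 after the start, RefSeq, GRCm38.p6) of 11 of the 34 listed members, or 32.4%, compared with 8.09% of 27025 genes. These were Ctsf, Ctsl, Ctsa, Ctsd, Gaa, Gla, Glb1, Naglu, Arsa, Sgsh and Lamp1. The longer TCACGTGA, which contains the core, was found in Ctsa, Ctsd and Gla (8.82% of members, 1.12% of genes). A still longer palindrome, which extends TCACGTGA at both ends, was found in 0 of the 34 members and in 0.370% of genes. That share of genes is so low that 0 of 34 does not set the members apart from all genes. A match of letters describes the sequence only. The 250 bases before the start are shown for 4 members, with CACGTG in capitals, chosen after their values were seen because 2 of them (Lamp1 and Ctsd) rose with age in both genotypes and the other 2 (Gla and Glb1) were among the glycosidases that fell in WT hearts.
Lamp1 (chr8:13158911-13159160, plus strand): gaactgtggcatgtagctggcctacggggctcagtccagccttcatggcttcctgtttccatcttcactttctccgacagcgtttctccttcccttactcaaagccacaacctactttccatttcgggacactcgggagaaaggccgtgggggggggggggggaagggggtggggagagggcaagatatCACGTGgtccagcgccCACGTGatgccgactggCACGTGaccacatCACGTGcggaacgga
Ctsd (chr7:142387828-142388077, minus strand): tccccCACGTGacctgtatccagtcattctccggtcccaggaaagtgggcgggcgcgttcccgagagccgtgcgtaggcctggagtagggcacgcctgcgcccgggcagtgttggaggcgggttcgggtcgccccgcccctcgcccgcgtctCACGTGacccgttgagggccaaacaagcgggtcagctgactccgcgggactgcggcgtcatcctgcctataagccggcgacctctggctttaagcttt
Gla (chrX:134601006-134601255, minus strand): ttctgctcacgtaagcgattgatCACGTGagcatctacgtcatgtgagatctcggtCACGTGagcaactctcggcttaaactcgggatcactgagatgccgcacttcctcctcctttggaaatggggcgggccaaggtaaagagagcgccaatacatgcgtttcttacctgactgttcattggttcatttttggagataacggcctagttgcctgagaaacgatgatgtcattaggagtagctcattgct
Glb1 (chr9:114400828-114401077, plus strand): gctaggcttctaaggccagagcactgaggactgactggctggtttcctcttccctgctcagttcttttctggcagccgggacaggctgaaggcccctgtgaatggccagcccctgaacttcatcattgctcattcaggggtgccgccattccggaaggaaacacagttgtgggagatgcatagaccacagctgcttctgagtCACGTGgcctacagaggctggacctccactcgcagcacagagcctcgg
Lamp1 held 4 copies, starting 61, 45, 28 and 15 bases before the start. Ctsd held 2, at 245 and 98 bases, and Gla 2, at 227 and 194 bases, while Glb1 held 1 at 48 bases.

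The first comparison asked how these genes change as the heart matures from birth to P30. In WT hearts, 27 of the 38 measured members changed, 12 upwards and 15 downwards, which is 71.1% of members where 47.0% of all genes were called (19.2% higher and 27.9% lower). All genes were not matched to the members for signal, so the higher share is not shown to be a trait of the members. The acid sphingomyelinase gene Smpd1 and the protease genes Ctsc and Ctsd were among those that rose, whereas the collagen-degrading Ctsk, the sulfatase gene Galns and the fucosidase gene Fuca1 fell. In KO hearts, 24 members changed, 12 upwards and 12 downwards, or 63.2% where 59.0% of all genes were called (34.0% higher and 25.0% lower). The median log2 change over members was -0.11 in WT hearts (0.0024 over all genes) and 0.027 in KO hearts (0.098 over all genes). Centring every array on its median moved the median of all genes to 0.26 in WT and 0.27 in KO hearts, and the members then split into 19 higher and 7 lower in WT and 20 higher and 7 lower in KO hearts. Within a genotype, centring gives the age change of every gene the same shift, and the share of all genes called after it is not given here. The split is therefore not shown to be a trait of the members.

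The members called were largely shared by the genotypes, which are separate sets of hearts. Higher in both were Ctsc, Ctsf, Ctsh, Ctss, Ctsd, Gaa, Idua, Ids, Smpd1, Psap and Lamp1 (11 genes), and lower in both were Ctsk, Ctsz, Tpp1, Glb1, Gusb, Man2b1, Manba, Fuca1, Arsa, Galns, Npc1 and Npc2 (12 genes). These 23 were 85.2% of the WT calls and 95.8% of the KO calls, and no member was called in opposite directions. Ctsl, Aga, Gla and Asah1 passed the test in WT hearts alone and Hexa in KO hearts alone, and 10 members passed in neither. Across the 38 members the log2 changes of the genotypes had a Pearson r of 0.926, and across all genes 0.93, as a description in which genes are not independent points. After centring on the array medians, the signs of Manba and Npc1 in WT hearts turned, to 0.023 and 0.012 with adjusted p of 0.802 and 0.908 (limma). The WT falls of Arsa, Asah1, Ctsl, Man2b1, Npc2 and Tpp1 then no longer passed. In KO hearts this held for the falls of Arsa, Ctsz, Man2b1, Manba and Tpp1.

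**Figure D1:**
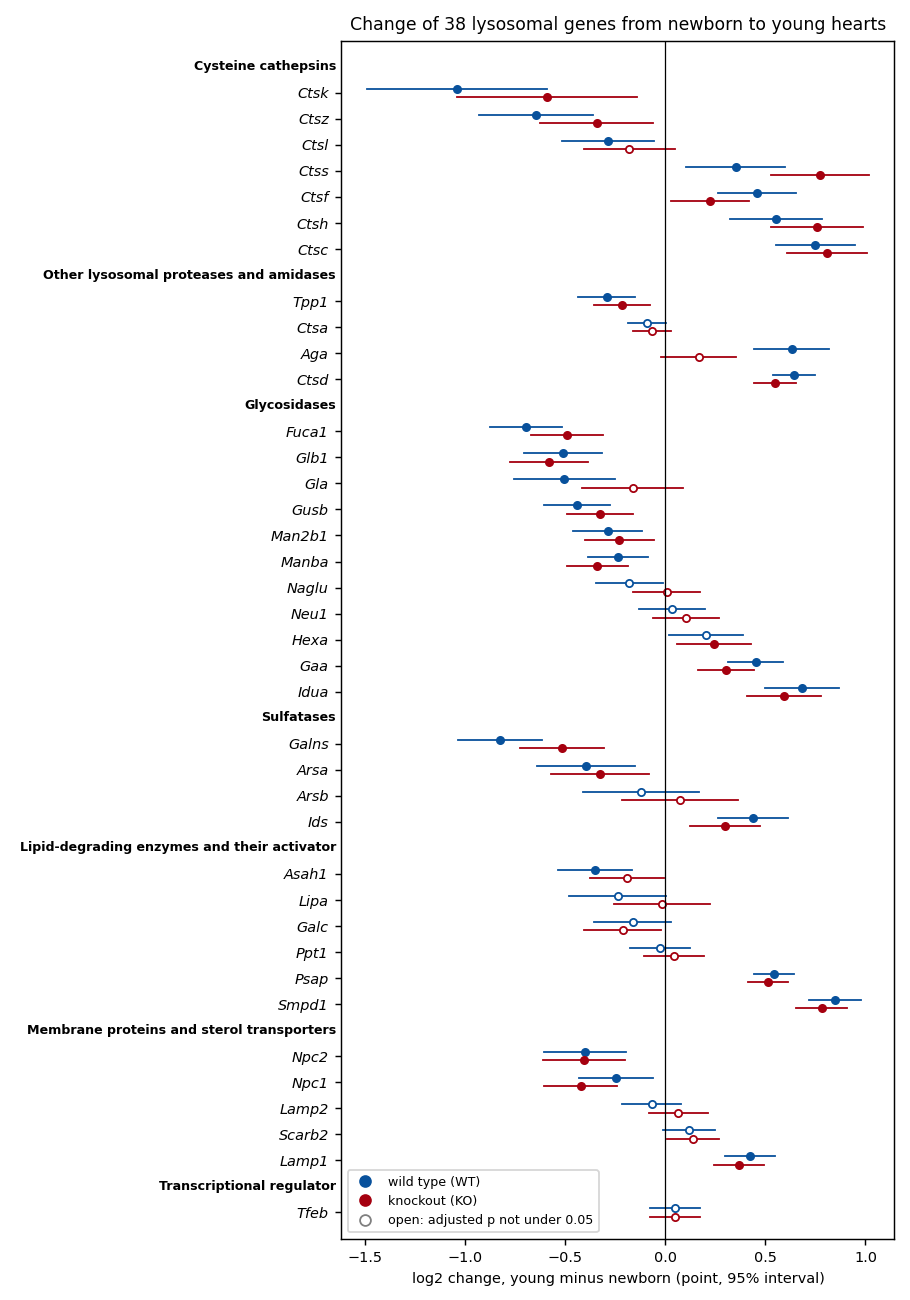
Log2 change from newborn to young hearts (x axis) of the 38 measured genes, grouped by role, in WT (blue) and KO (red) hearts. Points are limma estimates from 6 arrays per group, bars are 95% confidence intervals, and filled points passed an adjusted p of 0.05. Smpd1 and Ctsc lie at the right in both genotypes and Ctsk, Galns and Fuca1 at the left, while Tfeb lies close to 0.

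Among the cysteine cathepsins, 4 of 7 rose and 3 fell in WT hearts, and 4 rose and 2 fell in KO hearts. Ctsc encodes dipeptidyl peptidase I, which activates granule serine proteases of immune cells. Its log2 signal ran from 8.18 to 8.58 (median 8.39) in newborn WT and from 8.94 to 9.29 (median 9.14) in young WT hearts, a rise of 0.75 (SE 0.10, adjusted p 4.13e-07). Ctsc in KO hearts moved from 8.09 to 8.61 (median 8.29) to 8.90 to 9.43 (median 9.12), a rise of 0.81 (SE 0.10, adjusted p 1.57e-07). The ages did not overlap in either genotype. Ctsh, an aminopeptidase, went from 7.69 to 7.99 (median 7.85) to 8.13 to 8.70 (median 8.39) in WT hearts and from 7.70 to 8.35 (median 7.91) to 8.29 to 8.88 (median 8.80) in KO hearts, with rises of 0.55 and 0.76 (adjusted p 0.000181 and 3.52e-06). WT hearts did not overlap between the ages for Ctsh, whereas young KO 3, at 8.29, fell among the newborn KO hearts.

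Ctss, the cathepsin of antigen-presenting cells, was at 6.07 to 6.39 (median 6.31) in newborn WT and 6.29 to 6.91 (median 6.71) in young WT hearts, and at 5.87 to 6.48 (median 6.17) and 6.65 to 7.24 (median 6.94) in KO hearts. It rose by 0.35 in WT (SE 0.12, adjusted p 0.0171) and 0.77 in KO hearts (SE 0.12, adjusted p 7.07e-06), and only the KO ages were free of overlap. The WT call for Ctss was lost without young WT 3 (log2 change 0.29, adjusted p 0.0523). Ctsf, a broadly expressed cathepsin, was at 7.24 to 7.72 (median 7.45) in newborn WT and 7.72 to 8.11 (median 7.88) in young WT hearts, a rise of 0.46 (SE 0.10, adjusted p 0.000259). Its KO rise of 0.22 (adjusted p 0.0471) was lost when any of 14 single arrays was left out (adjusted p 0.0508 to 0.135 without them).

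Ctsk, best known as the collagenase of osteoclasts, fell the furthest of the members in WT hearts. It was at 6.16 to 6.64 (median 6.39) in newborn WT and 4.87 to 6.02 (median 5.31) in young WT hearts, without overlap, and fell by 1.04 (SE 0.22, adjusted p 0.000283), a 2.06-fold difference. KO hearts went from 6.06 to 6.68 (median 6.37) to 4.61 to 6.32 (median 5.97), with a fall of 0.59 (SE 0.22, adjusted p 0.0235) and overlapping ages. Without young KO 3, the lowest heart at 4.61, the KO change was -0.36 (adjusted p 0.0744), and without newborn KO 2 it was -0.53 (adjusted p 0.0533). Ctsz, a carboxypeptidase, was at 9.30 to 9.60 (median 9.47) in newborn WT and 8.45 to 9.37 (median 8.76) in young WT hearts, and fell by 0.65 (SE 0.14, adjusted p 0.000325). In KO hearts Ctsz fell by 0.34 (adjusted p 0.0352), a call lost without any of 7 arrays (adjusted p 0.0560 to 0.103). Ctsl, an abundant endopeptidase, fell by 0.29 in WT hearts (adjusted p 0.0358) and had -0.18 in KO hearts (adjusted p 0.161), and leaving out any of 7 arrays removed its WT call (adjusted p 0.0511 to 0.116).

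The other proteases and amidases moved apart from each other. Ctsd, the main aspartyl protease of the lysosome, was at 10.77 to 10.92 (median 10.87) in newborn WT and 11.42 to 11.59 (median 11.50) in young WT hearts. Its KO values were 10.82 to 10.98 (median 10.90) and 11.36 to 11.56 (median 11.46), so that the ages were far from overlapping in both genotypes. Ctsd rose by 0.64 in WT (SE 0.05, adjusted p 1.17e-10) and 0.55 in KO hearts (SE 0.05, adjusted p 2.31e-09), and its promoter is one of those shown above. Tpp1, a tripeptidyl peptidase lost in a childhood form of neuronal ceroid lipofuscinosis, fell by 0.29 in WT (adjusted p 0.000809) and 0.22 in KO hearts (adjusted p 0.00898). Median centring removed both calls of Tpp1. Ctsa, the protective protein that stabilises neuraminidase and beta-galactosidase, had -0.09 and -0.07 (adjusted p 0.12 and 0.228). Aga is described with the genotypes.

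Of the 11 glycosidases, 2 rose and 6 fell in WT hearts, and 3 rose and 5 fell in KO hearts. Fuca1, which removes fucose from glycans, was at 8.19 to 8.41 (median 8.27) in newborn WT and 7.33 to 7.83 (median 7.59) in young WT hearts, and at 8.05 to 8.39 (median 8.32) and 7.57 to 8.01 (median 7.83) in KO hearts. Its falls of 0.69 (SE 0.09, adjusted p 2.64e-07) and 0.49 (SE 0.09, adjusted p 4.07e-05) separated the ages in both genotypes. Glb1, the lysosomal beta-galactosidase, was at 7.60 to 8.01 (median 7.87) and 7.21 to 7.43 (median 7.27) in newborn and young WT hearts and at 7.67 to 7.93 (median 7.83) and 6.93 to 7.67 (median 7.15) in KO hearts. It fell by 0.51 in WT (SE 0.09, adjusted p 6.45e-05) and 0.58 in KO hearts (SE 0.09, adjusted p 1.37e-05). WT ages were separate for Glb1, and young KO 4, at 7.67, was level with the lowest newborn KO heart.

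Gla, the alpha-galactosidase lost in Fabry disease, was at 5.77 to 6.07 (median 5.88) in newborn WT and 4.82 to 5.86 (median 5.45) in young WT hearts, a fall of 0.50 (SE 0.12, adjusted p 0.00124). Its KO change was -0.16 (adjusted p 0.25), from 5.70 to 5.98 (median 5.72) to 5.37 to 6.03 (median 5.62). Gusb, beta-glucuronidase, went from 6.72 to 7.02 (median 6.83) to 6.24 to 6.53 (median 6.39) in WT hearts and fell by 0.44 there (SE 0.08, adjusted p 5.6e-05) and by 0.33 in KO hearts (adjusted p 0.00145). The mannosidase genes Man2b1 and Manba fell by 0.29 and 0.23 in WT (adjusted p 0.00547 and 0.00977) and by 0.23 and 0.34 in KO hearts (adjusted p 0.0214 and 0.000414), where the Man2b1 call was lost without KO arrays newborn 6, young 5 or young 6 (adjusted p 0.0502 to 0.0587) and the sign of Manba in WT hearts turned under median centring. Centring also removed the Man2b1 call in both genotypes and the Manba call in KO hearts.

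Idua and Gaa were the glycosidases that rose in both genotypes. Idua, which removes iduronate from heparan and dermatan sulfate, was at 7.45 to 7.98 (median 7.51) in newborn WT and 8.04 to 8.44 (median 8.27) in young WT hearts, and at 7.53 to 7.67 (median 7.64) and 7.92 to 8.46 (median 8.22) in KO hearts. It rose by 0.68 (SE 0.09, adjusted p 4.98e-07) and 0.59 (SE 0.09, adjusted p 4.73e-06), with no overlap of the ages in either genotype. Gaa, the enzyme that degrades glycogen in the lysosome, was at 8.94 to 9.28 (median 9.23) in newborn WT and 9.56 to 9.78 (median 9.64) in young WT hearts, and rose by 0.45 (SE 0.07, adjusted p 3.73e-06), and by 0.30 in KO hearts (adjusted p 0.000512). Hexa, a subunit of beta-hexosaminidase, rose by 0.24 in KO hearts (adjusted p 0.0227, and 0.0613 to 0.0662 without newborn KO 1, young KO 2 or young KO 4), next to 0.20 in WT hearts (adjusted p 0.0673). Naglu and Neu1, which remove N-acetylglucosamine and sialic acid, had changes of -0.18 and 0.04 in WT hearts (adjusted p 0.0745 and 0.751) and 0.01 and 0.10 in KO hearts (adjusted p 0.941 and 0.272).

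Sulfatases strip sulfate from glycosaminoglycans and sulfatides. Galns, which acts on keratan sulfate, was at 6.13 to 6.76 (median 6.52) in newborn WT and 5.56 to 5.88 (median 5.66) in young WT hearts, a fall of 0.83 (SE 0.10, adjusted p 2.06e-07). Among KO hearts it went from 6.09 to 6.49 (median 6.26) to 5.44 to 6.09 (median 5.76) and fell by 0.52 (SE 0.10, adjusted p 0.000147). Galns therefore separated the ages in WT hearts, while the highest young KO heart reached the lowest newborn KO heart. Arsa, arylsulfatase A, fell by 0.40 in WT (adjusted p 0.00798) and 0.33 in KO hearts (adjusted p 0.0232, and 0.0528 to 0.0704 without newborn KO 6, young KO 1 or young KO 3). Median centring removed both calls of Arsa. Ids, which acts on iduronate sulfate, rose by 0.44 in WT (SE 0.09, adjusted p 0.000124) and 0.30 in KO hearts (adjusted p 0.00464), and Arsb, arylsulfatase B, had -0.12 and 0.07 (adjusted p 0.511 and 0.655).

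Of the genes of lipid breakdown, Smpd1 and Psap rose. Smpd1, whose product cleaves sphingomyelin to ceramide, was at 9.88 to 10.08 (median 10.04) in newborn WT and 10.72 to 10.98 (median 10.88) in young WT hearts, and at 9.89 to 10.22 (median 10.06) and 10.72 to 11.01 (median 10.84) in KO hearts. Its rise of 0.85 in WT hearts (SE 0.06, adjusted p 3.45e-11), a 1.80-fold difference, was the largest of the members there, and the KO rise was 0.78 (SE 0.06, adjusted p 1.76e-10). Every young heart was above every newborn heart. Psap, the precursor of the saposins that present lipids to hydrolases, was at 11.39 to 11.56 (median 11.46) and 11.94 to 12.10 (median 11.99) in WT hearts and rose by 0.54 (SE 0.05, adjusted p 1.22e-09), and by 0.51 in KO hearts (SE 0.05, adjusted p 4.33e-09), from 11.37 to 11.53 (median 11.46) to 11.88 to 12.04 (median 11.98). Asah1, acid ceramidase, fell by 0.35 in WT hearts (adjusted p 0.00217), a call lost under median centring, and had -0.19 in KO hearts (adjusted p 0.0682). Lipa, Galc and Ppt1, which cleave cholesteryl esters, galactosylceramide and palmitate on proteins, had changes between -0.24 and -0.03 in WT hearts and between -0.21 and 0.05 in KO hearts, none of which passed.

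Lamp1, a major membrane glycoprotein whose promoter held 4 E-boxes, was at 10.20 to 10.43 (median 10.34) in newborn WT and 10.67 to 10.87 (median 10.75) in young WT hearts, and at 10.22 to 10.49 (median 10.34) and 10.59 to 10.81 (median 10.73) in KO hearts. It rose by 0.42 (SE 0.06, adjusted p 2.13e-06) and 0.37 (SE 0.06, adjusted p 1.69e-05) without overlap of the ages. Its relative Lamp2 had changes of -0.07 (95% interval -0.22 to 0.08) and 0.06 (-0.08 to 0.21), and Scarb2, the receptor that carries glucocerebrosidase, of 0.12 and 0.14 (adjusted p 0.134 and 0.0646). The cholesterol transporters Npc1 and Npc2 fell, Npc2 by 0.40 in both genotypes (adjusted p 0.00156 and 0.00146) and Npc1 by 0.42 in KO hearts (SE 0.09, adjusted p 0.000318) and 0.25 in WT hearts (adjusted p 0.0254). The Npc1 call in WT hearts was lost without newborn WT 4, newborn WT 5 or young WT 4 (adjusted p 0.0524 to 0.0738), and its sign turned under median centring. Centring removed the Npc2 call in WT hearts. Npc2 went from 7.25 to 7.72 (median 7.41) to 6.82 to 7.39 (median 7.04) in WT hearts and from 7.31 to 7.63 (median 7.48) to 6.87 to 7.37 (median 7.01) in KO hearts.

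With the deposited scaling Tfeb passed the test in no comparison, but it was called higher with age after median centring by 0.31 in WT (adjusted p 0.00173) and 0.22 in KO hearts (adjusted p 0.0154), and after new quantile normalisation in WT hearts. Centring put the median age change of all genes at 0.26 in WT and 0.27 in KO hearts. Among newborn hearts its log2 signal was 7.60 to 7.74 (median 7.69) in WT and 7.49 to 7.78 (median 7.66) in KO. Among young hearts it was 7.63 to 7.85 (median 7.73) in WT and 7.58 to 7.76 (median 7.73) in KO, so that all 4 groups overlapped. The age change was 0.05 in both genotypes (95% interval -0.07 to 0.17), and the KO difference was -0.03 at both ages (95% interval -0.16 to 0.09). Of the 10 measured members with CACGTG in the promoter window, 4 rose (Ctsd, Ctsf, Gaa and Lamp1), 4 fell (Arsa, Ctsl, Gla and Glb1) and 2 did not pass in WT hearts, and of the 23 listed without it 6 rose, 8 fell and 9 did not pass. In KO hearts the counts were 4 up, 2 down and 4 not passing with the letters, and 7, 8 and 8 without them.

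In young WT hearts 10 members lay wholly above and 5 wholly below their newborn values, where 11.5% and 18.2% of all genes did so (29.7% in either direction). For KO hearts these counts were 9 and 3, with 15.9% and 15.1% of all genes (31.0% in either direction).

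**Figure D2:**
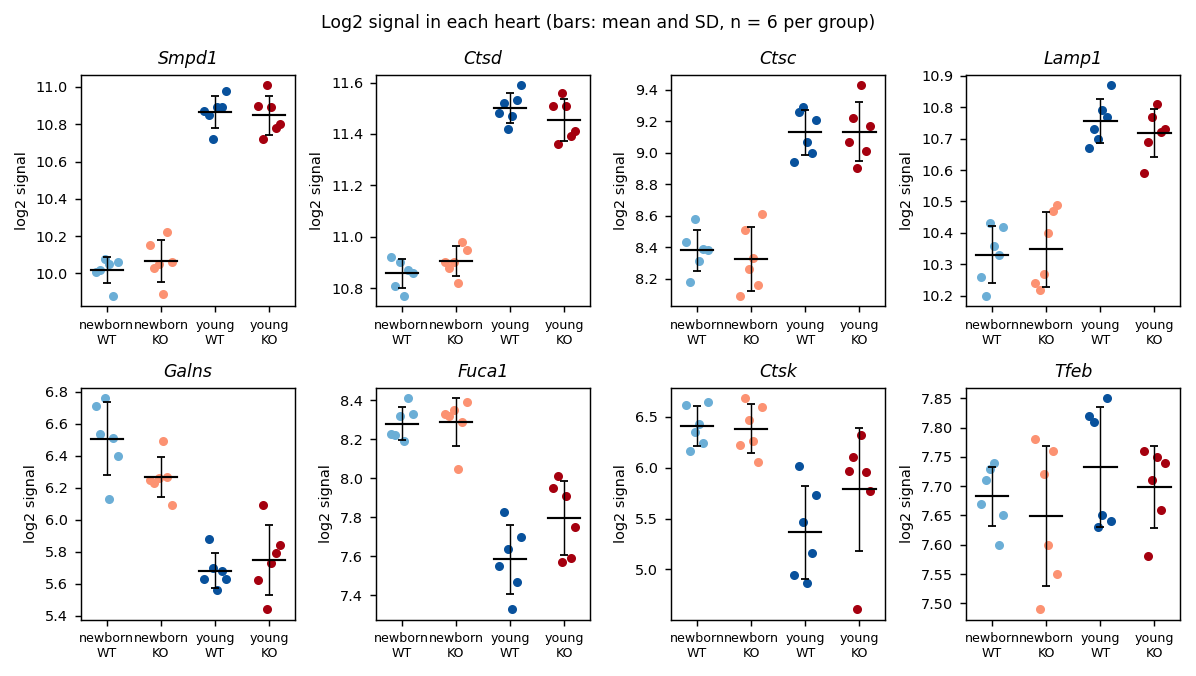
Log2 signal (y axis, a range of its own in each panel) of 8 genes in every heart, by group on the x axis, with 6 hearts per group. Lines and bars are mean and SD. Smpd1, Ctsd, Ctsc and Lamp1 were higher in every young heart than in every newborn heart, Galns, Fuca1 and Ctsk fell with age, with young KO 3 lowest for Ctsk at 4.61, and the 4 groups of Tfeb overlapped.

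The second comparison asked whether these genes differed between KO and WT hearts. In newborn hearts no member was called, where 0.00% of all genes were called by limma, and 3 members had an unadjusted p under 0.05, where 9.07% of all genes did. In young hearts 1 member was called, Aga, which was lower in KO hearts, where 1.02% of all genes were called (0.670% higher and 0.351% lower), and 6 members had an unadjusted p under 0.05 (15.0% of all genes). For the difference between the KO effects of the ages no member was called (0.0106% of all genes) and 3 had an unadjusted p under 0.05 (12.9% of all genes). The median difference between KO and WT over members was 0.0068 in newborn and 0.027 in young hearts, compared with -0.049 and 0.033 over all genes.

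**Figure D3:**
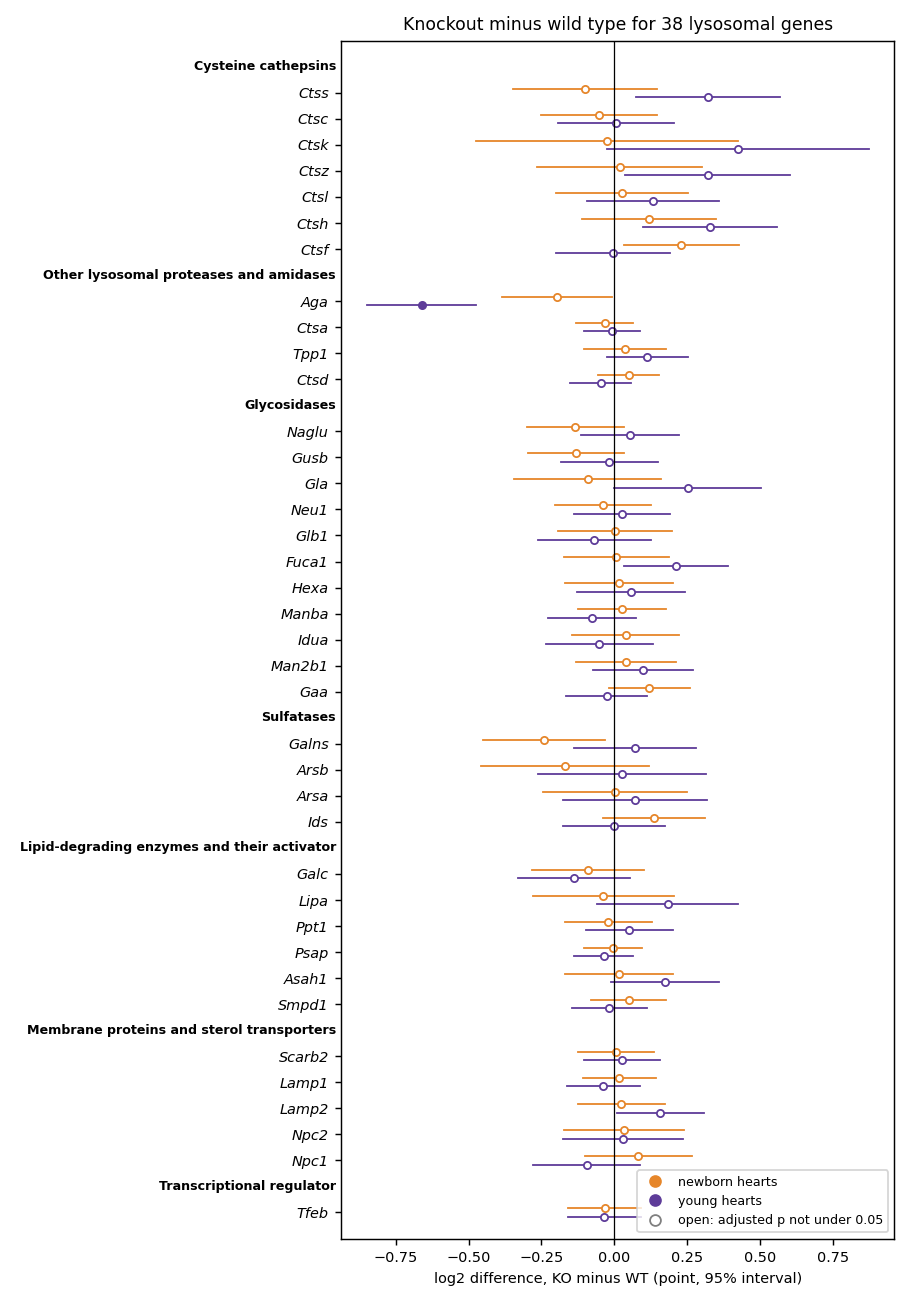
Log2 difference KO minus WT (x axis) of the 38 measured genes, grouped by role, in newborn (orange) and young (purple) hearts. Points are limma estimates from 6 arrays per group, bars are 95% confidence intervals, and filled points passed an adjusted p of 0.05. Aga in young hearts, at -0.66, is the one filled point.

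Aga encodes aspartylglucosaminidase, which cleaves the bond between N-glycans and asparagine late in glycoprotein breakdown. In young WT hearts 1 to 6 its log2 signal was 7.41, 7.56, 7.36, 7.23, 7.56 and 7.67, and in young KO hearts 6.78, 6.79, 6.58, 6.90, 6.81 and 6.97. Every young KO heart was thus below every young WT heart, as held for 0.404% of all genes (0.824% did not overlap in either direction). Among newborn hearts no member was free of overlap between the genotypes, where 0.489% of all genes were. The difference was -0.66 (SE 0.09, adjusted p 0.00053, limma), or 1.58-fold, which was the 6th smallest p and the 15th lowest log2 difference of all genes tested. It remained past the threshold under each of 41 alternatives, with adjusted p between 2.8e-05 and 0.00869.

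In newborn WT hearts 1 to 6 Aga was at 6.97, 6.87, 6.85, 6.44, 6.87 and 7.01, and in newborn KO hearts at 6.50, 6.61, 6.63, 6.85, 6.54 and 6.70. The arrays numbered 4, which also stood on the side of the other genotype over the 191 genes above, were the lowest WT and the highest KO values. The newborn difference was -0.20 (95% interval -0.39 to -0.01, adjusted p 0.527). Without both arrays numbered 4, WT hearts lay at 6.85 to 7.01 and KO hearts at 6.50 to 6.70, and the difference was -0.32 (adjusted p 0.0329), where 2.56% of all genes were called. These arrays were left out for lying on the side of the other genotype, which in itself widens the difference, so that the call is a description and no support for it. The KO difference in young hearts minus that in newborn hearts was -0.46, which did not pass its own test (adjusted p 0.215). Aga rose with age in WT hearts by 0.63 (SE 0.09, adjusted p 2.43e-06), while the KO change was 0.17 (95% interval -0.02 to 0.36, adjusted p 0.116).

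**Figure D4:**
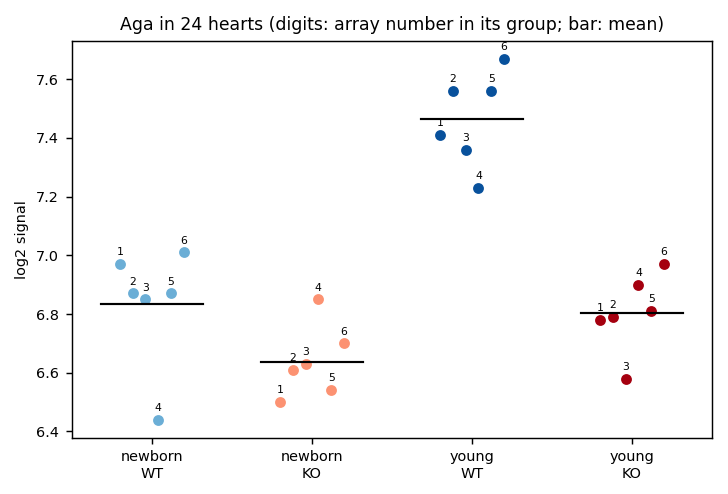
Log2 signal of Aga (y axis) in each of 24 hearts by group, with the array number beside each point and a line at the mean of 6. Young KO hearts (6.58 to 6.97) lie below young WT hearts (7.23 to 7.67), and the newborn arrays numbered 4 are the lowest WT (6.44) and the highest KO (6.85) values.

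Other members with the smallest p in young hearts did not pass after adjustment. Ctsh was at 8.13 to 8.70 (median 8.39) in WT and 8.29 to 8.88 (median 8.80) in KO hearts, a difference of 0.33 (adjusted p 0.15), and Ctss at 6.29 to 6.91 and 6.65 to 7.24, a difference of 0.32 (adjusted p 0.19). Fuca1 had 0.21 (adjusted p 0.238). For these genes WT and KO hearts overlapped. Ctsk and Ctsz had the widest intervals among the cathepsins, 0.42 (-0.03 to 0.87) and 0.32 (0.04 to 0.60). In newborn hearts Ctsf, Galns and Gaa had differences of 0.23, -0.24 and 0.12 (adjusted p 0.482, 0.489 and 0.603). Without the arrays numbered 4, the lowest WT (6.13) and highest KO (6.49) values of Galns, its difference was -0.36 (adjusted p 0.0447), a widening that the choice of arrays fixes. For the difference between the ages, Ctss, Galns and Gla followed Aga with 0.42, 0.31 and 0.34 (adjusted p 0.322, 0.37 and 0.411).

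Leaving out young WT 2 and young KO 3, the hearts that stood apart in fibroblast and, for WT 2, adipocyte, atrial and smooth muscle markers, raised the young calls to 8 members, at a background of 8.43% of all genes. Ctsk (0.79), Ctsz (0.51), Ctsh (0.47), Gla (0.40), Fuca1 (0.31), Asah1 (0.28) and Lamp2 (0.25) were then higher in KO hearts, with adjusted p from 0.00133 to 0.0464, and Aga was lower (-0.60, adjusted p 0.000332). Leaving out young KO 3 alone gave 3 calls, Ctsh and Ctsk higher and Aga lower, and the share of all genes called without it is not given here. Leaving out both hearts was chosen after the values had been seen. It takes away a high WT and a low KO heart for genes that follow these markers, so the higher calls are a description. With all 24 arrays and the fibroblast marker mean as a covariate Aga was the only member called.

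Markers of other heart cells moved with several of these results. The mean log2 signal of 14 macrophage markers went from 6.19 to 6.58 at birth to 7.07 to 7.46 at P30 in WT hearts, and from 6.30 to 6.97 to 7.20 to 7.64 in KO hearts. It rose with age by 0.888 in WT and 0.922 in KO hearts (exact two-sided permutation test, p 0.00216, the smallest that 924 permutations give), and 11 of the 14 genes rose and none fell in each genotype, including Csf1r, Adgre1 and Cd163. Epicardial markers (7 genes) fell with age, their mean changing by -1.85 in WT (exact permutation p 0.00216) and -1.14 in KO hearts (exact permutation p 0.0173). The mean of 10 markers of other leukocytes changed by -0.461 and -0.403 (exact permutation p 0.00216 in both). That list was mixed, with 2 genes called higher, 3 lower and 5 not called in each genotype. Its median log2 change was -0.373 in WT and -0.022 in KO hearts. With the macrophage mean as a covariate, which itself separated the ages, 24 members were called in WT hearts, 6 higher and 18 lower, and the WT age change of Ctsc was 0.12 (adjusted p 0.553), of Ctsh -0.04 (adjusted p 0.891) and of Ctss -0.33 (adjusted p 0.203). The rises of Smpd1 (0.91), Ctsd (0.63), Idua (0.62), Aga (0.54), Psap (0.45) and Lamp1 (0.33) in WT hearts still passed. The share of all genes called with this covariate is not given here, so the count of members has no background beside it.

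Fibroblast markers (10 genes) had a mean of 9.34 to 9.55 at birth and 8.02 to 9.55 at P30 in WT hearts, and of 9.16 to 9.74 and 8.10 to 9.84 in KO hearts. The change of their mean with age was -0.825 in WT hearts (exact permutation p 0.0152), where 5 of 10 genes fell, and -0.245 in KO hearts (exact permutation p 0.444). Ctsk was low in the hearts with a low fibroblast mean. It was at 4.61 in young KO 3, where that mean was 8.10, and at 6.02 in young WT 2, where it was 9.55. With the fibroblast mean as a covariate the WT age change of Ctsk was -0.30 (adjusted p 0.0145) instead of -1.04, that of Ctsz -0.23 (adjusted p 0.0556), and 18 members were called in WT hearts, 13 higher and 5 lower. The share of all genes called is not given for this fit either. Between young KO and WT hearts, the mean of the ventricular muscle markers was lower in KO (difference -0.067, exact permutation p 0.0043) and that of smooth muscle markers higher (1.25, exact permutation p 0.0216). The permutation p-values for marker means were not adjusted for the number of lists and comparisons. As single genes, 1 of 10 ventricular markers (Ryr2, lower in KO) and 0 of 5 smooth muscle markers were called. The differences of 2.06 in atrial and 0.581 in fibroblast markers did not pass the exact permutation test (p 0.0519 and 0.115). Aga remained called with the atrial, the macrophage or the fibroblast mean as a covariate. The part of ventricular and smooth muscle content in these results was not tested.

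**Figure D5:**
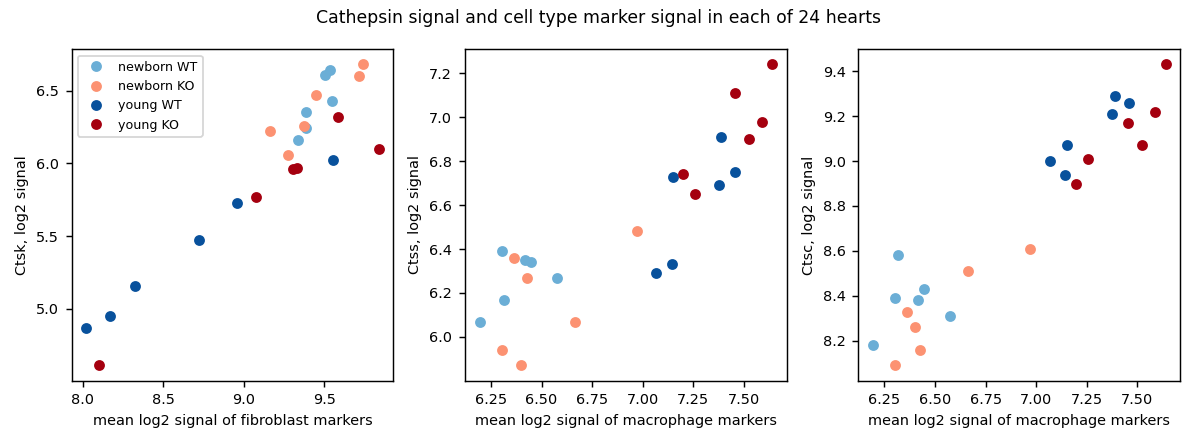
Log2 signal of Ctsk against the mean log2 signal of 10 fibroblast markers (left), and of Ctss (middle) and Ctsc (right) against the mean of 14 macrophage markers, one point per heart and one colour per group of 6. Young KO 3 has the lowest Ctsk (4.61) at a fibroblast mean of 8.10, and all 12 young hearts lie to the right of the newborn hearts on the macrophage axis.

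Gla, Ids and Lamp2 are X-linked. Within young WT hearts Gla was at 4.82 to 5.86 in the 3 hearts low for Y-linked transcripts and 5.24 to 5.47 in the other 3, and within young KO hearts at 5.57 to 6.03 and 5.37 to 5.68. Lamp2 was at 10.55 to 10.59 in the 3 young KO hearts low for Y-linked transcripts and 10.19 to 10.53 in the other 3, and at 10.22 to 10.49 and 10.15 to 10.39 in young WT hearts. Ids was at 7.73 to 7.87 and 7.67 to 7.87 in young WT hearts, and at 7.74 to 7.99 and 7.35 to 7.81 in young KO hearts, in the same order. With the Y-linked mean as a covariate 29 members were called with age in WT and 24 in KO hearts, and Aga was the one called between genotypes in young hearts. The share of all genes called with this covariate is not given here.

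Genes of the wider lysosomal pathway moved in both directions with age as well. Of the 6 cathepsin inhibitors 3 were called in WT and 4 in KO hearts, and in the other 6 lists the share called was 52.6% to 73.9% in WT and 47.8% to 67.7% in KO hearts, against 47.0% and 59.0% of all genes. Of 23 other hydrolases 8 rose and 7 fell in each genotype, among them Plbd1, a phospholipase B-like protein (1.70 in WT hearts), and Scpep1, a serine carboxypeptidase (-1.13). Of 31 other membrane proteins 11 rose and 10 fell in WT and 13 rose and 8 fell in KO hearts, with the peptide transporter Abcb9 at 1.49 and the sialic acid exporter Slc17a5 at -0.89 in WT hearts. Of 16 subunits of the V-ATPase, the proton pump of the organelle, 2 rose and 7 fell in WT and 4 rose and 5 fell in KO hearts. Atp6v0a2 rose by 0.55 and Atp6v1a fell by 0.47 in WT hearts.

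Of 16 genes that sort enzymes to the lysosome, 3 rose and 7 fell in each genotype. Igf2r, the large mannose phosphate receptor, fell by 1.17 in WT (SE 0.06, adjusted p 1.4e-13) and by 1.53 in KO hearts (SE 0.06, adjusted p 1.12e-15), and Nagpa, which uncovers the mannose phosphate tag, rose by 0.37 in WT hearts. Of 23 genes of the Tfeb family and of mTORC1 at the lysosome 11 rose and 6 fell in WT and 8 rose and 3 fell in KO hearts, with Lamtor1, an anchor of mTORC1, at 0.49 and Zkscan3, a repressor of autophagy genes, at -0.72. Of 38 autophagy genes 12 rose and 8 fell in WT and 15 rose and 9 fell in KO hearts, with Map1lc3a at 0.91 and the tethering subunit Vps11 at -0.56. Of 6 cathepsin inhibitors 2 rose and 1 fell in WT and 3 rose and 1 fell in KO hearts, with Cst6 at 0.65 and Cstb, cystatin B, at -0.49.

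Between genotypes in young hearts, 1 of these 153 pathway genes was called (0.654%, where 1.02% of all genes were), so that the count is not above the background. It was Mtor, the kinase that holds Tfeb in the cytosol when nutrients are plentiful. In young WT hearts it was at 8.38, 8.14, 8.23, 8.36, 8.17 and 8.28, and in young KO hearts at 7.81, 7.75, 8.12, 8.02, 8.01 and 7.86, without overlap. Mtor was lower in young KO hearts by 0.33 on the log2 scale (SE 0.07, adjusted p 0.0268, limma).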

How the data were processed

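RNA of mouse ventricles was hybridised to 24 Affymetrix arrays, 6 in each of 4 groups taken from the labels. The deposited table holds log2 values for 35017 probe sets, which the authors normalised by robust multi-array averaging (oligo 1.22 in R 2.15, with limma 3.14 for their tests, per the labels' processing notes). Values ran from 1.07 to 13.51, and no pair among 276 array pairs was identical. The genome build of the array design is not given in the sources used here. Of the probe sets, 21118 named 1 gene, 1735 several and 12164 none, by the platform annotation, and 21085 of the first were matched by Entrez ID with 0 symbols changed. The brightest probe set of each gene was kept, giving 18819 genes. Arsb had 2 probe sets and the other measured members 1. A model of 4 group means was fitted to all genes with limma 3.58.1 (lmFit, eBayes, R 4.3.3, 20 residual degrees of freedom) and p-values were adjusted over all genes by the Benjamini-Hochberg method. The fit was tested on simulated data. Methods and labels do not say how arrays were batched, and precision is limited by how many arrays there are. Labels and methods give slightly different ages for the newborn and young mice.

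The members and all gene lists were chosen with earlier results of these data known, as was leaving out the newborn arrays numbered 4. Named genes were the 8 largest rises and falls with age, the called members (or the 4 of smallest p) between genotypes, Tfeb, X-linked members, and the largest rise and fall of each pathway list. Alternatives were median centring, new quantile normalisation, a filter at the 30th percentile, an adjusted p of 0.01, a fold of 1.5, trend and robust moderation, array weights, a replicate block, other probe set rules, only the groups compared, each array left out, and covariates for Y-linked, macrophage and atrial signal. The fibroblast covariate and leaving out young WT 2 with young KO 3 were added after the data were seen. Promoter sequences are from RefSeq (GRCm38.p6), where 34 of 40 members were listed. The deleted genes are not reported here.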

Additional observations from a re-analysis of the deposited data

Results flagged for a closer look

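In 12 of 152 groups of 6 hearts 1 heart lay far from the others for a member, by Dixon's criterion at the 95% level, where chance alone singles out about 1 in 20 groups, or 7.6. Young KO 3 was low for Ctsk at 4.61 (5.77 to 6.32 in the others), for Ctsh at 8.29 (8.76 to 8.88) and for Lamp2 at 10.19 (10.5 to 10.59), in the heart with the lowest fibroblast marker mean of its group. The newborn arrays numbered 4 gave WT values of 6.44 for Aga (6.85 to 7.01) and 7.98 for Idua (7.45 to 7.58), and a KO value of 8.05 for Fuca1 (8.29 to 8.39). Young KO 4 was high for Ctsa at 10.71 (10.53 to 10.58), young WT 2 was high for Tpp1 at 9.3 (9.02 to 9.12), and young WT 5 was low for Scarb2 at 8.86 (9.16 to 9.3). Newborn WT 2 was low for Gaa at 8.94 (9.2 to 9.28), newborn WT 5 was low for Smpd1 at 9.88 (10.01 to 10.08), and newborn KO 6 was low for Galc at 6.16 (6.36 to 6.46).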

How the results depend on the processing

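Of 52 calls of a member in a comparison, 10 were lost under none of the 41 alternatives and 9 were lost when some single array was left out. With age, Aga, Ctsd, Ctsk, Fuca1, Galns, Idua and Smpd1 kept their WT calls under all alternatives, and Idua and Smpd1 their KO calls. Asking also for a fold of 1.5 left 9 members with age in WT hearts (5 higher, 4 lower) and 6 in KO hearts (5 and 1). The median age change over members was 0.151 in WT and 0.200 in KO hearts after median centring, and in WT hearts -0.018 after new quantile normalisation, 0.021 with the fibroblast covariate and -0.0024 with the atrial covariate, which left 20 members called (13 higher, 7 lower). With the macrophage covariate the medians were -0.052 for newborn KO against WT, -0.331 for age in WT and -0.272 for age in KO hearts, where 18 members were called (4 higher, 14 lower), and the signs of Ctsh (-0.040), Ctss (-0.33) and Ids (-0.015) in WT and of Ctsf (-0.16), Hexa (-0.31) and Ids (-0.17) in KO hearts turned. Median centring turned Manba (0.023) and Npc1 (0.012) in WT hearts and removed the other falls named above. With the fibroblast or the atrial covariate, the WT falls of Arsa, Asah1, Ctsl, Gla, Man2b1, Npc1, Npc2 and Tpp1 did not pass. Without both newborn arrays numbered 4, 2 members were called in newborn hearts, and without young WT 2 and young KO 3, 8 were called in young hearts and 1, Ctsk, for the difference between the ages. Both exclusions were chosen with values of these hearts known and can widen the differences by the choice itself. The causes of the other shifts were not tested. Except where stated above, the share of all genes called under an alternative is not given here, so these counts of members have no background beside them. With single arrays left out, members called ranged from 0 to 0 in newborn hearts, 1 to 3 in young hearts, 0 to 0 for the difference between the ages, 26 to 28 for age in WT and 21 to 24 for age in KO hearts. The medians ranged from -0.015 to 0.024, -0.017 to 0.078, -0.0007 to 0.098, -0.144 to -0.077 and -0.023 to 0.044 in that order.

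Samples share replicate numbers across groups, but the deviations of same-numbered arrays correlated from -0.438 to 0.645, so the numbers were not taken to pair the hearts. With the replicate number as a block, 27 members were called with age in WT hearts (12 higher, 15 lower) and 24 in KO hearts, 1 in young and 0 in newborn hearts and 0 for the difference between the ages, and Ctsf lost its KO call.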
